A study of Homo sapiens with 38 samples.

Results

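The interleukin 6 family is described here by 7 genes, the ligands IL6, LIF and IL11 and the receptor chains IL6ST, IL6R, LIFR and OSMR, in IMR90 cells, a line of human fetal lung fibroblasts. The members were taken by gene symbol: 22 of the 54613 probe sets on the array carry one of these symbols alone, and the brightest of a gene's probe sets, by its mean over the arrays, stands for it. They are 7 of 19775 genes so represented. All 7 genes, and 16 of the 22 probe sets, exceeded a log2 value of 5 on at least 2 arrays of the first experiment and were tested. The first experiment holds 32 arrays in 16 groups of 2. Its cells carried a control vector or a hairpin construct, shRB, shp107 or shp130, that targets the retinoblastoma protein RB or its relatives p107 and p130. Each line was profiled in low serum (0.1% fetal bovine serum) and, in 10% serum, in ras-induced senescence, at confluence and while growing. A second experiment holds 6 arrays, with 2 each of senescent shRB, senescent vector and growing vector cells, all in 10% serum. The labels name the arrays of a group only as replicates A and B, so p-values measure the spread between these arrays, which may be technical, and 2 arrays per group limit the precision of every value. Statements that the arrays of 2 groups do not overlap are descriptions, since the share of all genes that separate so was not counted.

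Cytokines of this family share a signalling chain, gp130, the product of IL6ST. Interleukin 6 and interleukin 11 first bind a receptor of their own (IL6R for interleukin 6), leukemia inhibitory factor binds LIFR, and OSMR pairs with gp130 to bind oncostatin M. The assembled chains activate JAK kinases and the transcription factor STAT3, whose target SOCS3 dampens the signal. Interleukin 6 is a well known product of fibroblasts undergoing oncogene-induced senescence.

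RB1 read between 3.64 and 6.45 (log2) on the shRB arrays of the first experiment, against 9.14 to 9.86 on its vector arrays. In the second experiment it read 6.64 to 7.08 in shRB cells, against 9.07 to 10.00 in vector cells. RBL2, the gene of p130, read 4.64 to 5.86 in shp130 cells, against 7.47 to 8.47 in vector cells. RBL1, the gene of p107, was dim, with 2.95 to 3.95 in shp107 cells and 3.24 to 4.65 in vector cells of the first experiment, so the array gives no clear check of that hairpin. The mean of 9 fibroblast markers was 9.82 to 10.78 on the senescent arrays and 10.80 to 11.80 on all others. No epithelial marker exceeded 4.15 and no blood marker exceeded 3.38, while of 5 endothelial markers TEK alone passed the filter. TEK was lower in senescent than in growing vector cells of both experiments (-1.69 and -2.14) and higher with shRB in senescent cells of the second (0.99), and its part in the ligand values was not tested. The replicates of confluent vector cells differed most, with an SD of the difference between the arrays of 0.79 over the genes tested, against 0.18 to 0.66 in the other groups. In whole-culture RNA, fewer cells of a type and less RNA per cell cannot be told apart.

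The IL6 and IL11 genes carried the largest differences below, and the 250 bases before their annotated starts are shown for that reason, from RefSeq (GRCh38.p14), read 5′ to 3′ along the gene's strand. IL6 lies at chr7:22727200-22731998 on the plus strand, with the window at chr7:22726950-22727199, and IL11 lies at chr19:55364382-55370463 on the minus strand, with the window at chr19:55370464-55370713. Capitals mark matches to 5 motifs searched on both strands, and no matches overlapped in these windows.
IL6: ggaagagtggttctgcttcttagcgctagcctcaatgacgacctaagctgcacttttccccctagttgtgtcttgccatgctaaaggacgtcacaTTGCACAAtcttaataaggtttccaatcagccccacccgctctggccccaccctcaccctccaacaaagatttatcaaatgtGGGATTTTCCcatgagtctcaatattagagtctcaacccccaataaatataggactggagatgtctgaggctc
IL11: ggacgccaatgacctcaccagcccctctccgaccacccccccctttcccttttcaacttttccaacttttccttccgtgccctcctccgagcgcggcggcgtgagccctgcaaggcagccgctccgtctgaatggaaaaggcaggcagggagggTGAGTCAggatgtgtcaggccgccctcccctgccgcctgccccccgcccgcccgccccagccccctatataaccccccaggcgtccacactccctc
The IL6 window held 1 NF-kB motif (GGG and TTTCC with any 2 bases between) at -73 to -64 and 1 C/EBP motif (TTNNGNAA) at -155 to -148, counted back from the start. The IL11 window held 1 AP-1 motif (TGANTCA) at -96 to -90. Neither held a STAT (TTCNNNGAA) or E2F (TTTNGCGC) motif as spelled here. Of 35116 promoter windows of this length, 1.73% held the NF-kB, 33.2% the C/EBP, 6.57% the AP-1, 6.57% the STAT and 1.51% the E2F motif. No window was at hand for LIF, so it was not searched. Of the receptors, windows were at hand for IL6ST, IL6R, LIFR and OSMR. The IL6ST window held none of the 5 motifs, the IL6R and OSMR windows 1 C/EBP motif each, and 2 of the 3 LIFR windows 1 STAT motif each beside C/EBP motifs. A match is a description of the letters only.

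The first question was how the ligands follow growth state where the RB family is intact. Low serum gave the lowest IL6 and IL11 values of the vector cells, and confluence and senescence the highest. IL6, the family's prototype cytokine, read 5.35 and 4.09 in low-serum vector cells, against 10.81 and 7.61 in growing vector cells. IL11, a fibroblast-derived cytokine with its own receptor, read 6.42 and 6.89 in low serum, against 11.08 and 9.77 while growing. For both genes the low-serum arrays lay below both growing arrays, although the growing arrays themselves lay far apart for IL6. The log2 change was -4.49 ± 0.83 for IL6 (SE; adjusted p = 0.000992) and -3.77 ± 0.50 for IL11 (adjusted p = 3.01e-05). LIF, which signals through LIFR and gp130, read 7.80 and 8.38 in low serum and 9.79 and 8.68 while growing. Its change of -1.14 did not pass (adjusted p = 0.0843), with an interval of -2.03 to -0.24. Among the 7 members 2 were called lower and 1 higher (LIFR), where 13% of the 8511 genes tested were called. Without the first growing vector array the IL6 change was -2.89 (adjusted p = 0.0406), and with only the arrays compared in the fit the IL6 call ended (adjusted p = 0.0651).

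Confluence moved the ligands the other way in vector cells. IL6 read 13.38 and 10.12 at confluence, against 10.81 and 7.61 while growing. LIF read 11.70 and 9.82 at confluence, against 9.79 and 8.68. IL11 read 12.75 and 11.28 at confluence, against 11.08 and 9.77. For LIF and IL11 both confluent arrays lay above both growing arrays, but for IL6 the lower confluent array lay below the higher growing one. The changes were 2.54 ± 0.83 for IL6 (adjusted p = 0.0292), 1.52 ± 0.43 for LIF (adjusted p = 0.0126) and 1.59 ± 0.50 for IL11 (adjusted p = 0.0224). With LIFR, 4 of 7 members were called, all higher, where 25.1% of genes were called. All 4 calls ended with only the arrays compared in the fit (adjusted p of 0.128 to 0.352), and the IL6 call also with no filter on dim genes (0.0629). Each ligand's call ended without the first confluent vector array (IL6 0.91, LIF 0.59, IL11 0.86; adjusted p of 0.295 to 0.483) and without the second growing vector array (IL6 0.94, LIF 0.97, IL11 0.94; adjusted p of 0.24 to 0.547). Without the second confluent vector array the IL6 change was 4.17 and the LIF change 2.46, and without the first growing vector array the IL6 change was 4.14.

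Senescent vector cells of the first experiment had IL6 at 11.96 and 11.06, against 10.81 and 7.61 in growing cells, so both senescent arrays lay above both growing ones. The change was 2.30 ± 0.83 (adjusted p = 0.0463). IL11 read 11.86 and 11.27 in senescent cells, against 11.08 and 9.77 while growing, a change of 1.14 that did not pass (interval 0.11 to 2.17; adjusted p = 0.102). LIF read 10.24 and 9.74, against 9.79 and 8.68, a change of 0.76 that did not pass either (interval -0.14 to 1.65). IL6 was the one member called of 7, where 25.4% of genes were called. The IL6 call ended without the second growing vector array (0.70, adjusted p = 0.661), the first senescent array (1.85, adjusted p = 0.245) or the second senescent array (2.75, adjusted p = 0.0735), with only the arrays compared in the fit (adjusted p = 0.140) and with no filter on dim genes (0.100). Without the first growing vector array the IL6 change was 3.90 and the IL11 change was 1.79, which then passed (adjusted p = 0.0341).

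Set against low-serum vector cells, senescent vector cells had all 3 ligands higher. These groups also differed in serum, at 0.1% and 10%, and the part of serum was not tested. The changes were 6.79 ± 0.83 for IL6, 4.91 ± 0.50 for IL11 and 1.90 ± 0.43 for LIF (adjusted p = 1.7e-06, 1.24e-07 and 0.00151). The low-serum arrays of IL6 lie on either side of the filter level of 5, so the size of that change rests on dim values. Against confluent vector cells no ligand passed, with changes of -0.24 for IL6 (interval -1.96 to 1.49), -0.45 for IL11 (-1.48 to 0.58) and -0.77 for LIF (-1.66 to 0.13). The share of all genes called was 38.9% against low serum and 33.4% against confluence, so members numbered 4 of 7 and 1 of 7 with LIFR counted in both. Without the second confluent vector array the LIF change against confluence was -1.71 and passed (adjusted p = 0.0033), and without the first the OSMR change was 0.79 and passed (0.0416). Without the second low-serum array IL6R fell by 1.45 against low serum (adjusted p = 0.00212).

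**Figure D1:**
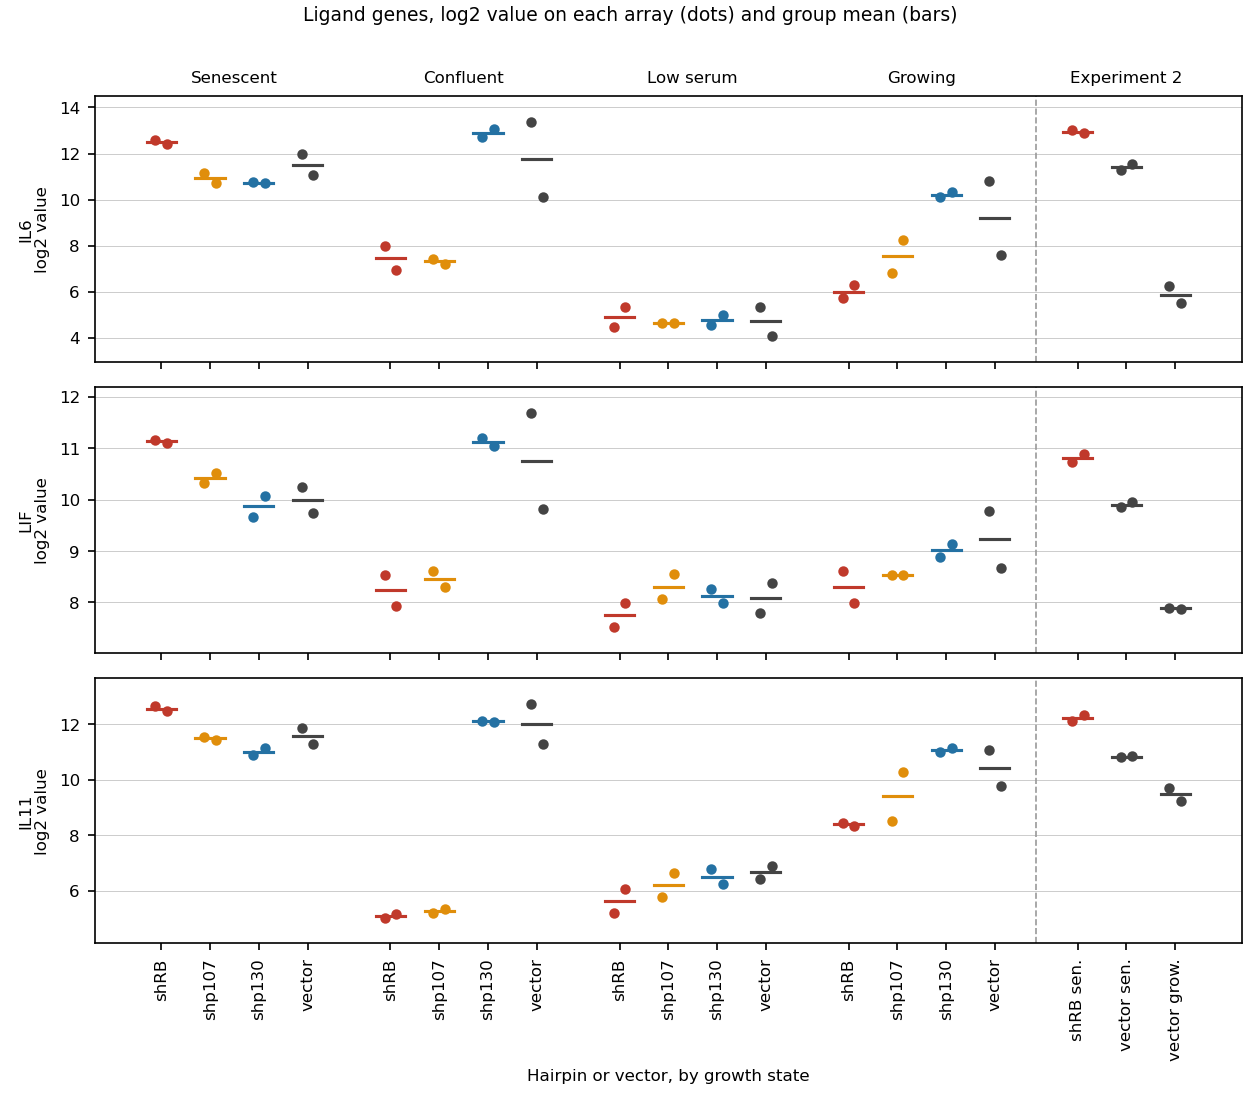
Log2 value of IL6, LIF and IL11 on each array (dots) with the group mean (bars), by growth state and hairpin, the second experiment at the right of the dashed line. IL11 lies between 5.02 and 5.33 on the 4 confluent shRB and shp107 arrays and between 11.28 and 12.75 on the confluent shp130 and vector arrays.

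The second question was how the ligands differ between cells with each hairpin and vector cells. Whether a difference comes from the targeted gene or from the culture of a group was not tested. The clearest differences were at confluence. IL11 read 5.02 and 5.17 in confluent shRB cells, 5.18 and 5.33 in confluent shp107 cells and 12.13 and 12.07 in confluent shp130 cells, against 12.75 and 11.28 in confluent vector cells. The shp130 arrays lay inside the range of the vector arrays, and the shRB and shp107 arrays far below it. The change from vector was -6.92 ± 0.50 in shRB cells (adjusted p = 2.47e-09), and -6.76 ± 0.50 in shp107 cells (adjusted p = 4.11e-09), both against the same vector arrays and both from values near the filter level of 5. The second IL11 probe set, 206926_s_at, also read lower, with changes of -3.53 in shRB and -3.85 in shp107 cells, where 15.5% and 12.1% of probe sets were called.

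IL6 in confluent cells read 7.99 and 6.95 with shRB, 7.43 and 7.22 with shp107 and 12.72 and 13.08 with shp130, against 13.38 and 10.12 with vector. All 4 shRB and shp107 arrays lay below both vector arrays and both shp130 arrays. The change was -4.28 ± 0.83 with shRB (adjusted p = 0.000988) and -4.42 ± 0.83 with shp107 (adjusted p = 0.000739). LIF read 8.54 and 7.93 with shRB, 8.62 and 8.29 with shp107 and 11.20 and 11.04 with shp130, against 11.70 and 9.82 with vector. Its change was -2.52 ± 0.43 with shRB (adjusted p = 0.000296) and -2.30 ± 0.43 with shp107 (adjusted p = 0.000727).

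All 3 ligands and no receptor were therefore called lower with each of these hairpins, where 17.5% of genes were called with shRB and 13.5% with shp107. With shp130 no member was called, where 0.0235% of genes were called. The shp130 intervals ran from -0.57 to 2.88 for IL6, from -0.53 to 1.26 for LIF and from -0.95 to 1.11 for IL11. Each of the 6 calls with shRB and shp107 was kept when any 1 array of its groups was left out. With only the arrays compared in the fit the IL11 calls held (adjusted p = 0.0245 with shRB and 0.0208 with shp107), while the IL6 and LIF calls ended with both hairpins (adjusted p of 0.152 to 0.193). Without the first confluent vector array the shRB changes were -2.65 for IL6 (adjusted p = 0.043) and -1.58 for LIF (0.0117), and the shp107 changes were -2.79 for IL6 (0.0324) and -1.36 for LIF (0.0306).

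Within each hairpin, confluence moved the ligands differently. IL11 fell by 3.30 in confluent shRB cells relative to growing shRB cells (adjusted p = 0.000178) and by 4.14 in the shp107 pair (4.28e-05). In the shp130 pair its change was 1.03 and did not pass (interval -0.00 to 2.06). IL6 changed by 1.46 with shRB (interval -0.26 to 3.18) and by -0.21 with shp107 (-1.93 to 1.52), neither passing. With shp130 IL6 rose by 2.69 (adjusted p = 0.027) and LIF by 2.11 (adjusted p = 0.00158). Members called numbered 1 of 7 with shRB, 2 of 7 with shp107 and 2 of 7 with shp130, where 11.1%, 8.15% and 18.6% of genes were called. The IL6 call with shp130 ended without any 1 of the 4 arrays compared, with changes of 2.58 and 2.80 (first and second growing array) and 2.87 and 2.51 (first and second confluent array).

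Tests of the difference in hairpin effect between confluent and growing cells passed for IL11 alone. The difference was -4.89 ± 0.70 with shRB (adjusted p = 0.000231) and -5.73 ± 0.70 with shp107 (2.7e-05), where 2.55% and 3.35% of genes were called. Both calls ended with only the arrays compared in the fit (adjusted p = 0.0616 and 0.0887). The IL6 differences were -1.08 with shRB (interval -3.52 to 1.36) and -2.75 with shp107 (-5.18 to -0.31). No member was called for shp130, where 0.0117% of genes were called. The shp107 difference for IL6 passed without the first growing vector array (-4.35, adjusted p = 0.0283) or the second confluent vector array (-4.38, 0.012). LIF passed without the second confluent vector array (-2.53 with shRB and -2.54 with shp107).

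**Figure D2:**
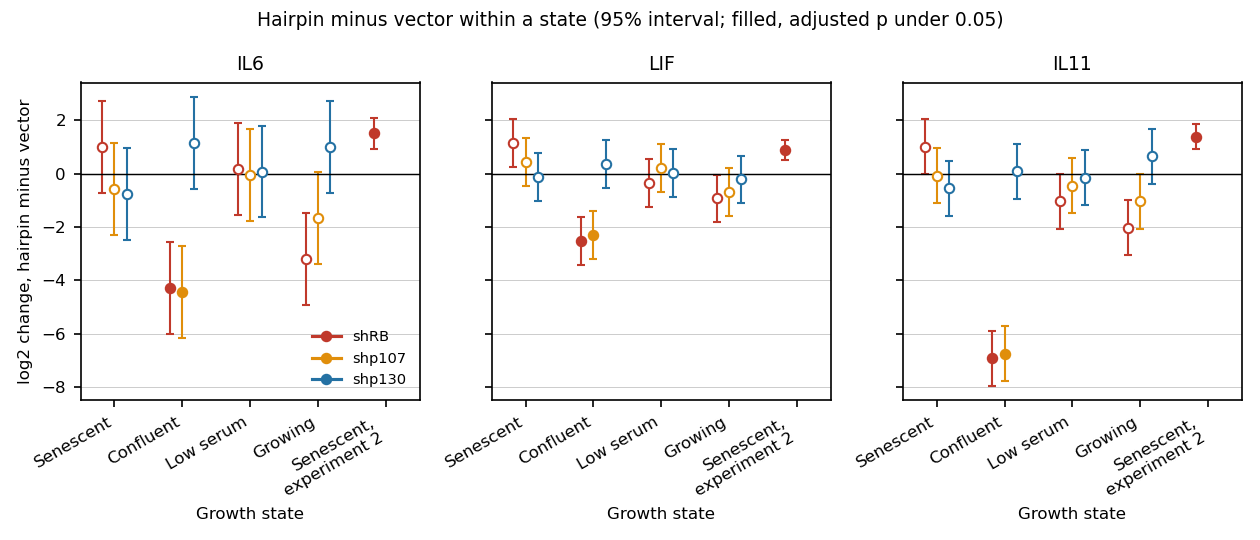
Log2 change of IL6, LIF and IL11 between hairpin and vector cells in each growth state, with 95% intervals, filled where the adjusted p is under 0.05. In confluent cells the shRB and shp107 points lie between -6.92 and -2.30, the shp130 points between 0.08 and 1.15, and the filled points at the right are shRB in the second experiment.

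In senescent cells the ligand values with shRB lay above vector in both experiments, but the difference passed in the second alone. In the first, IL6 read 12.58 and 12.43 in senescent shRB cells, against 11.96 and 11.06 in senescent vector cells, a change of 1.00 ± 0.83 (interval -0.73 to 2.72). LIF read 11.16 and 11.11, against 10.24 and 9.74, a change of 1.15 ± 0.43 (adjusted p = 0.106). IL11 read 12.64 and 12.50, against 11.86 and 11.27, a change of 1.00 ± 0.50 (adjusted p = 0.242). For each ligand both shRB arrays lay above both vector arrays, which is a description of the values and not a test. No member was called with shRB, shp107 or shp130, where 9.75%, 7.84% and 1.67% of genes were called.

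IL6 in the second experiment read 13.00 and 12.87 in senescent shRB cells, against 11.30 and 11.56 in senescent vector cells (change 1.51 ± 0.25, adjusted p = 0.00623). LIF read 10.73 and 10.88 with shRB, against 9.85 and 9.96 with vector (0.90 ± 0.16, adjusted p = 0.00817). IL11 read 12.12 and 12.33 with shRB, against 10.81 and 10.86 with vector (1.39 ± 0.20, adjusted p = 0.00308). By the test 3 of 7 members were called, where 20.1% of genes were called. The groups did not overlap for any of the 3 ligands, a description with no share over all genes to set beside it. All 3 calls ended in 1 fit over all 38 arrays (adjusted p = 0.223 for IL6, 0.156 for LIF and 0.0647 for IL11). The IL6 call also ended without the first senescent vector array of that experiment (1.38, adjusted p = 0.0654), and the LIF call without the first (0.85, 0.116) or the second (0.96, 0.0955). The shRB effect did not differ detectably between the experiments, with differences of 0.51 for IL6 (interval -1.77 to 2.79), -0.25 for LIF (-1.42 to 0.93) and 0.39 for IL11 (-0.98 to 1.75), where 1.16% of genes were called.

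The fitted shRB effects on the ligands had opposite signs in senescent and confluent cells, and a test of that difference was added after the values were seen. Senescent minus confluent, the shRB effect differed by 7.93 ± 0.70 for IL11 (adjusted p = 1.4e-07), 5.28 ± 1.17 for IL6 (0.00406) and 3.67 ± 0.61 for LIF (0.000332), where 13.9% of genes were called. For shp107 the differences were 6.69 ± 0.70 for IL11 (3.26e-06), 3.84 ± 1.17 for IL6 (0.0388) and 2.73 ± 0.61 for LIF (0.00553), where 11% of genes were called. With only the arrays compared in the fit the IL11 calls held (adjusted p = 0.00286 and 0.00403), and the IL6 and LIF calls ended with both hairpins (adjusted p of 0.0568 to 0.187). With shp130 no member passed, where 0.153% of genes were called. The shp107 call for IL6 ended in 7 of 8 fits that left out 1 array: 2.21 without the first confluent vector array, 3.94 and 3.73 without the first and second confluent shp107 array, 4.28 and 3.39 without the first and second senescent vector array, and 3.62 and 4.05 without the first and second senescent shp107 array. Without the first confluent vector array the shp107 difference for LIF was 1.79 and still passed (adjusted p = 0.032).

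Senescent cells were also set against growing cells of the same hairpin. With shRB, IL6 read 12.58 and 12.43 in senescent cells, against 5.73 and 6.29 in growing cells, a change of 6.50 ± 0.83 or 90.3-fold (adjusted p = 3.03e-06). IL11 rose by 4.17 ± 0.50 and LIF by 2.83 ± 0.43 in the same pair (adjusted p = 1.09e-06 and 2.73e-05). With shp107 the changes were 3.39 for IL6, 2.10 for IL11 and 1.89 for LIF, all called. With shp130 they were 0.52, -0.06 and 0.86, none called, and IL6 read 10.75 and 10.72 in senescent shp130 cells, against 10.10 and 10.32 in growing ones. Members called numbered 5, 4 and 1 of 7 with shRB, shp107 and shp130, where 32.8%, 38.2% and 32.7% of genes were called. Without the first growing shp107 array the shp107 calls ended for IL6 (2.69, adjusted p = 0.0529) and IL11 (1.20, 0.0911).

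Senescent vector cells of the second experiment read 11.30 and 11.56 for IL6, against 6.26 and 5.50 in its growing vector cells, a change of 5.55 ± 0.25 or 46.8-fold (adjusted p = 1.52e-06). LIF rose by 2.02 ± 0.16 and IL11 by 1.36 ± 0.20 (adjusted p = 2.95e-05 and 0.000895). With 3 receptors, 6 of 7 members were called, where 39.2% of genes were called. Senescent shRB cells against the same growing vector cells gave 7.05 for IL6, 2.92 for LIF and 2.75 for IL11, and 4 of 7 members called, where 33.5% of genes were called. OSMR there changed by 0.69 (adjusted p = 0.0593) and passed without the second growing array (0.99, 0.0161) or the first shRB array (0.94, 0.0394), and IL6R changed by 0.27 and passed without the second growing array (0.66, 0.0452). The change of IL6 between senescent and growing vector cells differed between the experiments by 3.25 ± 1.10 and did not pass (interval 0.97 to 5.53; adjusted p = 0.16), where 1.5% of genes were called. Without the second growing vector array of the first experiment that difference was 4.85 and passed (adjusted p = 0.0148).

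Growing and low-serum cells showed no member called with any hairpin, in tests that called few genes at all. In growing cells 0.188% of genes were called with shRB, 0% with shp107 (by limma, with 117 genes at an unadjusted p under 0.05) and 0.0587% with shp130, and in low serum 0.0822%, 0.0352% and 0.27%. IL6 read 5.73 and 6.29 in growing shRB cells, against 10.81 and 7.61 in growing vector cells, a change of -3.20 with an interval of -4.93 to -1.48 (adjusted p = 0.115). IL11 read 8.45 and 8.34 in growing shRB cells, against 11.08 and 9.77 with vector, a change of -2.03 (interval -3.06 to -1.0; adjusted p = 0.0854). Both shRB arrays lay below both vector arrays for each gene. Without the second growing vector array both passed, at -4.80 for IL6 (adjusted p = 0.00979) and -2.69 for IL11 (0.0446). The shRB effect on IL11 differed between senescent and growing cells by 3.04 ± 0.70 (adjusted p = 0.0232), the one member called there, where 1.99% of genes were called. That call ended in 6 of 8 fits that left out 1 array: 2.39 without the first growing vector array, 3.09 and 2.98 without the first and second growing shRB array, 2.74 without the second senescent vector array, and 2.97 and 3.11 without the first and second senescent shRB array. The IL6 difference was 4.20 (adjusted p = 0.0743) and the LIF difference 2.08 (0.0946), and without the second growing vector array both passed, at 5.80 (0.0063) and 2.63 (0.041). No member was called for the other hairpins in that test, where 1.17% of genes with shp107 and 0.164% with shp130 were called. Of the low-serum differences none passed, where 0%, 0% and 0.0117% of genes were called with shRB, shp107 and shp130; limma gave 307 and 170 genes at an unadjusted p under 0.05 with shRB and shp107.

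IL11 was lower in low-serum than in growing cells with every hairpin. The change was -2.78 with shRB (adjusted p = 0.00108), -3.19 with shp107 (0.000237) and -4.57 with shp130 (4.01e-06). IL6 fell by 5.41 in low-serum shp130 cells (adjusted p = 0.000142) and by 2.88 in low-serum shp107 cells (0.0387). With shRB the IL6 change was -1.12 and did not pass (interval -2.84 to 0.61). On all 8 low-serum arrays IL6 lay between 4.09 and 5.35, with a median of 4.66. Members called numbered 2, 3 and 3 of 7 with shRB, shp107 and shp130, LIFR included, where 6.43%, 6.8% and 9.8% of genes were called. The shp107 call for IL6 ended without the second growing array (-2.18, adjusted p = 0.357), the first low-serum array (-2.89, 0.201) or the second low-serum array (-2.86, 0.152).

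The receptor chains moved less, apart from LIFR. LIFR, the chain that binds leukemia inhibitory factor, had its 3 highest group means in low serum (shp130, vector and shRB) and its 6 lowest in the senescent groups, while low-serum shp107 cells lay just below confluent shp107 cells. In vector cells it read 8.88 and 7.54 in low serum, against 5.63 and 5.10 while growing, so the groups did not overlap (change 2.85 ± 0.49, adjusted p = 0.000592). Low-serum shp130 cells read 8.99 and 8.96, against 5.49 and 5.65 in growing shp130 cells (3.40 ± 0.49, adjusted p = 8.89e-05). The changes with shRB (1.98, adjusted p = 0.0173) and shp107 (1.69, 0.0417) also passed. The shRB call ended without the first growing array (1.87, 0.153), the second growing array (2.10, 0.0702) or the second low-serum array (1.59, 0.133), and the shp107 call without the second growing array (1.29, 0.361), the first low-serum array (1.44, 0.316) or the second low-serum array (1.95, 0.0891). By the mean of its probe sets the LIFR change was 0.75 with shRB and 0.57 with shp107, neither called.

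At confluence LIFR read 6.44 and 7.79 in vector cells, against 5.63 and 5.10 while growing, a change of 1.75 ± 0.49 (adjusted p = 0.0127). Both confluent arrays lay above both growing arrays, but the call ended without the second confluent array (1.08, adjusted p = 0.185) or the second growing array (1.49, 0.132), with only the arrays compared in the fit (adjusted p = 0.128) and by the mean of the LIFR probe sets (0.51, 0.164). With shp107 the change was also 1.75 (adjusted p = 0.0315) and ended without the second growing array (1.35, 0.329), the first confluent array (2.09, 0.0727) or the second confluent array (1.41, 0.258), and by the mean of the probe sets (0.70, 0.106). The changes with shRB (1.38, interval 0.35 to 2.41) and shp130 (0.95, interval -0.08 to 1.97) did not pass, and the shp130 change was 1.74 and passed without its second confluent array (adjusted p = 0.0322).

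Senescent arrays read from 4.28 to 5.22 for LIFR over the 8 arrays of the first experiment. Both senescent shp107 arrays, at 5.22 and 5.20, lay above a growing vector array at 5.10, so the states overlapped. The 4 senescent arrays of the second experiment read from 4.20 to 4.70. In the second experiment LIFR read 4.70 and 4.66 in senescent vector cells, against 6.03 and 6.45 while growing (change -1.56 ± 0.19, adjusted p = 0.000351). The first experiment's vector change was -0.62 and did not pass (interval -1.65 to 0.41). With shp107 it was -0.19 (interval -1.22 to 0.84) and with shp130 -1.19 (interval -2.22 to -0.16; adjusted p = 0.0709), neither called. With shRB it was -1.30 (adjusted p = 0.0487), the one call among the 4 lines, and that call ended without any 1 of its arrays, with changes of -1.42 and -1.18 (first and second growing array) and -1.38 and -1.22 (first and second senescent array). Relative to the quiescent vector cells LIFR fell by 3.47 in senescence against low serum (adjusted p = 1.2e-05) and by 2.37 against confluence (0.000978). The call against confluence ended with only the arrays compared in the fit (adjusted p = 0.0652) and by the mean of the probe sets (-0.66, 0.0627). The probe set 225571_at of LIFR fell in both comparisons too, with changes of -1.84 and -1.31, where 35.7% and 32.3% of probe sets were called. LIFR on 227771_at fell by 1.63 against low serum but changed by -0.00 against confluence. Over the 19 group means 225571_at followed the brightest LIFR probe set with r of 0.90.

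OSMR, the chain that binds oncostatin M with gp130, was bright everywhere and slightly higher in senescence. It read 11.67 and 12.12 in senescent shp107 cells, against 10.59 and 10.54 in growing shp107 cells (1.33 ± 0.26, adjusted p = 0.000332). With shRB it read 11.54 and 11.55 in senescent cells, against 10.92 and 10.61 while growing (0.78, adjusted p = 0.023), and with shp130 11.63 and 11.72, against 10.84 and 11.00 (0.76, 0.0273). In none of these pairs did the groups overlap. Vector cells of the first experiment changed by 0.66 (interval 0.13 to 1.19; adjusted p = 0.0645) and those of the second by 0.77 (adjusted p = 0.037). The shRB call ended without the second growing array (0.63, 0.167) or the first (0.79, 0.0757) or second (0.77, 0.0916) senescent array, and the shp130 call without the first (0.67, 0.15) or second (0.84, 0.0655) growing or the first (0.80, 0.0805) or second (0.71, 0.123) senescent array. In the second experiment the call ended without the first growing array (0.47, 0.151) or the first (0.78, 0.148) or second (0.75, 0.164) senescent array.

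A dimmer OSMR probe set, 1554008_at, gave larger senescent changes in a fit over all 15482 probe sets that passed the filter. It read 7.55 and 7.41 in senescent shRB cells, against 5.14 and 5.09 in growing shRB cells (change 2.37, where 31.5% of probe sets were called). The changes were 1.82 with shp107, 1.36 with shp130 and 1.73 in the second experiment's vector cells, all called, where 35%, 30.4% and 38.7% of probe sets were called. In senescent cells it was also higher with shRB than with vector in the first experiment, by 1.43 (adjusted p = 0.00835), where 8.74% of probe sets were called. In the second experiment it read 6.45 and 6.64 with shRB, against 7.09 and 7.0 with vector, which is the opposite order.

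**Figure D3:**
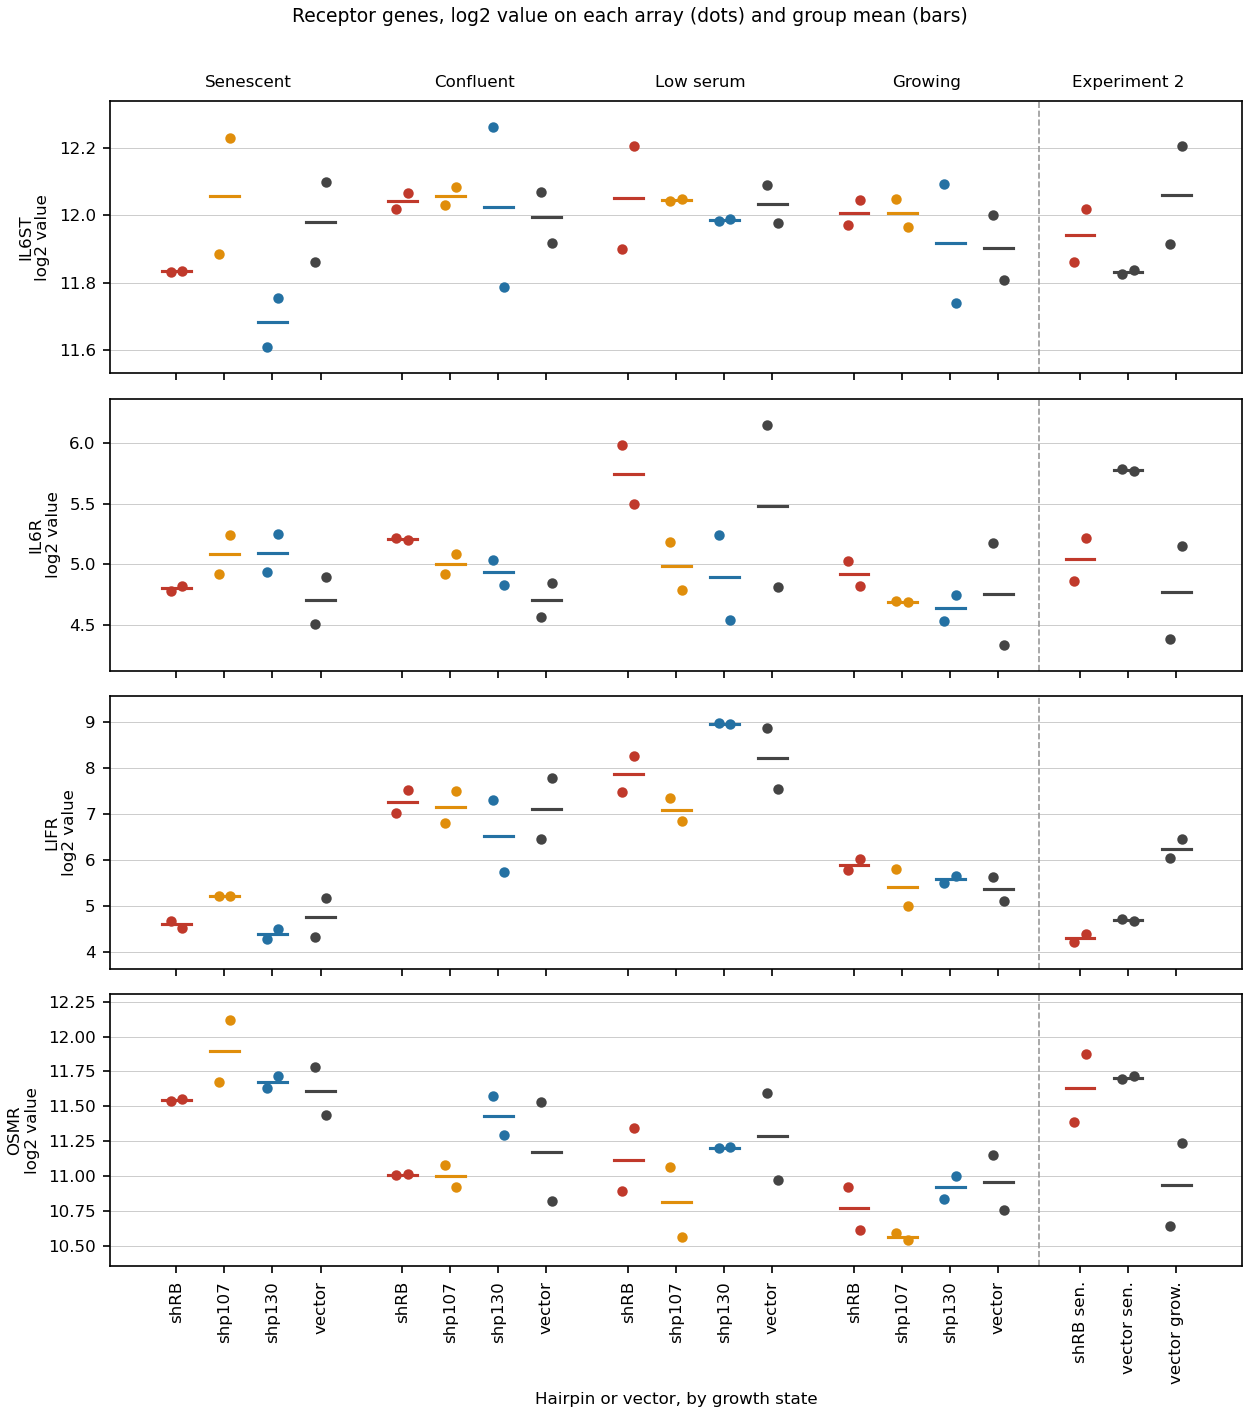
Log2 value of IL6ST, IL6R, LIFR and OSMR on each array (dots) with the group mean (bars), with a separate vertical scale for each gene. LIFR spans 4.20 to 8.99, while the group means of IL6ST lie within 0.38 of each other.

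IL6ST, the gene of the shared chain gp130, was the steadiest member by its brightest probe set, 212195_at. Its 19 group means lay between 11.68 and 12.06, and no comparison called it. The other probe sets of IL6ST did not give the same picture. On 212196_at IL6ST read 9.28 and 8.49 in confluent vector cells, against 10.53 and 10.58 in growing vector cells, a change of -1.67 (adjusted p = 0.00362), where 24.4% of probe sets were called. That probe set was also lower in senescent than in growing cells with shRB (-1.30) and with shp130 (-1.58). By group means, 2 other probe sets ran the opposite way at confluence. In confluent against growing vector cells 204863_s_at averaged 9.21 against 6.68, and 211000_s_at 7.63 against 6.29. In senescent against growing cells 204863_s_at averaged 8.48 against 7.02 with shRB and 9.29 against 7.99 with shp130. On 204863_s_at the IL6ST values ran from 5.46 to 10.03, often with wide gaps between replicates, as in growing vector cells at 7.62 and 5.74. Over the group means its r with 212195_at was -0.24. Senescent minus confluent vector cells, 204863_s_at changed by -3.08 and 211000_s_at by -1.88, both called, while 212195_at changed by -0.01 and 212196_at by 0.93 without passing. Which probe set best follows the gp130 transcripts was not tested.

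IL6R, the receptor that binds interleukin 6 itself, stayed near the filter, with all arrays between 4.33 and 6.15. It was called once, in senescent vector cells of the second experiment at 5.78 and 5.77, against 4.38 and 5.15 while growing (1.01 ± 0.26, adjusted p = 0.0151). The call ended without the first (1.00, adjusted p = 0.0817) or second (1.02, 0.079) senescent array, and without the first growing array the change was 0.63. In the first experiment the senescent vector change was -0.05 (interval -0.75 to 0.64). Low-serum vector cells read 6.15 and 4.81, against 5.17 and 4.33 while growing, and did not pass (0.73, adjusted p = 0.159). Without the second low-serum vector array that change was 1.39 and passed (adjusted p = 0.00957).

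**Figure D4:**
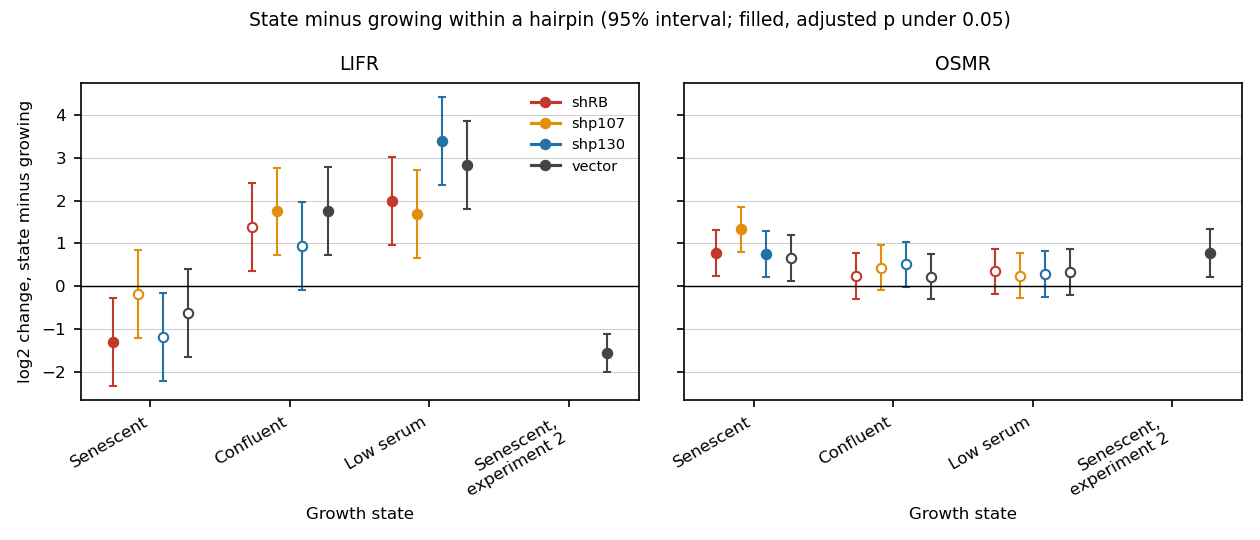
Log2 change of LIFR and OSMR between each growth state and growing cells of the same hairpin, with 95% intervals, filled where the adjusted p is under 0.05. The LIFR changes in low serum run from 1.69 with shp107 to 3.40 with shp130, all filled, and the senescent changes of OSMR from 0.66 to 1.33.

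Other members of the family were mostly dim. Of 8 further ligands 5 had a probe set of their own and none passed the filter, with CTF1 the highest at 4.03. Of 4 further receptors IL31RA alone passed, with values of 4.11 to 5.52, near the filter level of 5. In the first experiment it rose in senescent against growing cells with shRB (0.62), shp130 (0.67) and vector (0.62, adjusted p = 0.0498). There 32.8%, 32.7% and 25.4% of all genes were called. It was not called with shp107 (0.45) or in vector cells of the second experiment (0.34). IL11RA, the receptor of interleukin 11, did not exceed 4.36. The sheddase genes ADAM10 and ADAM17, whose products cut receptors such as IL6R from the cell surface, both passed. In the first experiment ADAM17 rose by 1.19 in confluent vector cells (adjusted p = 0.00381), where 25.1% of all genes were called. ADAM10 fell by 0.63 in its senescent vector cells (adjusted p = 0.013), where 25.4% were called. Neither sheddase gene was called in senescent against growing vector cells of the second experiment, where 39.2% of all genes were called.

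Regulators of IL6 transcripts and genes downstream of STAT3 were counted from lists, to be read beside all genes. In confluent against growing vector cells, 8 of 14 tested regulators rose and 1 fell, with a list median of 1.15 against -0.05 over all genes, where 25.1% of all genes were called. IL1B, an inducer of interleukin 6, rose by 4.34 and IL1A by 4.35. TNFAIP3, an NF-kB feedback gene, rose by 3.67, while FOSL1, an AP-1 subunit, fell by 2.33. Of 13 STAT3 responders 5 rose, FOS by 2.79, and none fell. Of 11 JAK-STAT3 genes 2 rose, SOCS3 by 3.02 and PIM1 by 0.90, and SOCS2 fell by 1.05, so that 3 of 11 were called, close to the share of all genes. Without the second growing vector array 3 responders rose and the JAK-STAT3 calls numbered 1 higher and 0 lower. Without the second confluent vector array 0 JAK-STAT3 genes were called lower, and the same held without the first growing vector array.

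Confluent shRB cells had regulators below confluent vector cells, in a comparison that shares the confluent vector arrays with the one above: 8 of 14 fell and none rose, with a median of -1.20 against -0.07 over all genes, where 17.5% of all genes were called. IL1B fell by 5.18, IL1A by 4.18, TNFAIP3 by 2.38 and NFKBIZ, an NF-kB cofactor, by 1.68. Of the STAT3 responders 6 of 13 fell, FOS by 3.21, and of the JAK-STAT3 genes 3 of 11, SOCS3 by 2.52. With shp107, 8 regulators, 4 responders and 2 JAK-STAT3 genes fell and none rose, SOCS3 by 3.10 and IL1B by 5.69, where 13.5% of all genes were called. The JAK-STAT3 count with shp107 is close to that share. With shp130 none of the genes tested on these lists was called. Without the first confluent vector array the counts were 5 regulators, 3 responders and 1 JAK-STAT3 gene with shRB, and 5 regulators with shp107. Responders numbered 2 without the second confluent shRB array, 4 JAK-STAT3 genes fell and 1 rose with shRB without the second confluent vector array, and 4 regulators fell with shp107 without its second array. Fibroblast markers moved in these comparisons too: 4 of 9 were higher with shRB and 3 of 9 with shp107, THY1 by 2.41 and 2.09. That count was 1 with shRB without the first confluent vector or first confluent shRB array, and 1 with shp107 without the first confluent vector array or either shp107 array. Their part in the ligand result was not tested.

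Senescent vector cells of the first experiment had far more IL1A and IL1B signal than growing vector cells and less of 2 SOCS genes, which encode feedback inhibitors of the pathway. In the first experiment 4 of 14 regulators rose and none fell, with IL1A up by 7.14 and IL1B by 6.33 and a list median of 0.26 against -0.10 over all genes. That count is close to the 25.4% of all genes called. Of 11 JAK-STAT3 genes 2 fell and none rose, which is not above that share. SOCS2 fell by 3.87 and SOCS1 by 2.25, while SOCS3 changed by 1.14 without passing (adjusted p = 0.100). SOCS2 was also called lower in low-serum and in confluent vector cells. Of the STAT3 responders 4 rose and 2 fell. In the second experiment 7 regulators rose and 1 fell, and 7 responders rose and 2 fell, where 39.2% of all genes were called. Of 11 JAK-STAT3 genes there 1 rose, SOCS3 by 1.43, and 3 fell, a count close to that share. The median of that list was -0.31, against 0.01 over all genes. Fibroblast markers fell alongside, 5 of 9 in the first and 7 of 9 in the second experiment, with COL3A1 down by 2.21 and 4.19. Their part in the ligand values was not tested. Without the first senescent vector array of the first experiment 2 responders rose, and without the first growing vector array 1 fell. In the second experiment the JAK-STAT3 genes that fell numbered 1 without either senescent array, against 3 in the full set, and no regulator fell. Responders that fell there numbered 1 without the first senescent or second growing array and 0 without the second senescent array, and 2 JAK-STAT3 genes rose without the second growing array.

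With shRB in senescent cells none of the 14 regulators was called in the first experiment, where 9.75% of all genes were called. VEGFA (0.75) rose as 1 of 13 responders and GRB2 (0.65) as 1 of 11 JAK-STAT3 genes, both close to that share. In the second, 2 regulators rose and 3 fell, where 20.1% of all genes were called, and none was called without either 1 of the senescent vector arrays. REL rose by 1.06 and MYC fell by 0.95 there, and neither MYC nor any other responder was called without either vector array. The regulators that fell numbered 1 without either shRB array. In low-serum vector cells 4 of 14 regulators fell and none rose, FOSL1 by 2.87 and IL1B by 2.51, where 13% of all genes were called. That count was 2 without the first growing or first low-serum vector array, and 1 fell and 1 rose without the second low-serum array. SOCS2 fell by 5.38 there.

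Over the 19 groups IL6 ranged most among the members, by 8.28 between its highest mean in senescent shRB cells of the second experiment (12.93) and its lowest in low-serum shp107 cells (4.66). Of the 18 pairs of neighbours in that order, 5 had arrays that did not overlap. Such counts describe the values only and do not rank the members, since the share over all genes was not counted. IL11 ranged over 7.47, from 12.57 in senescent shRB cells to 5.09 in confluent shRB cells, with 7 neighbour pairs apart. LIFR ranged over 4.68 with 5 pairs apart, LIF over 3.39 with 3, OSMR over 1.33 with 1, IL6R over 1.14 with 0 and IL6ST over 0.38 with 1. The step of 1.74 in IL11 between growing shRB cells and low-serum vector cells was larger than any other step in its order. The low-serum groups of IL6 could not be ranked, since their neighbours' arrays overlapped.

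Likeness across groups was described by Pearson's r over the 19 group means, which share experiment and arrays and carry no test. IL6 and LIF had r of 0.95, IL11 with IL6 0.87 and IL11 with LIF 0.86. LIFR ran opposite to the ligands, with -0.72 for IL6, -0.61 for LIF and -0.76 for IL11. The genes nearest to IL6 were TCIM (0.97), NFKBIZ (0.97) and NAMPT (0.96), and ITGBL1 was farthest (-0.98). Nearest to LIF were GCH1 (0.97), the chemokine gene CXCL6 (0.97) and ZC3H12C (0.97), with SPARC farthest (-0.95). Nearest to IL11 was DUSP1 (0.96), which encodes a MAP kinase phosphatase, then RASSF8 (0.94) and GK3 (0.93), with PITPNB farthest (-0.96). For LIFR these were SOX6 (0.96), RBM43 (0.94) and ADAMTS8 (0.94), with VEGFC farthest (-0.95). For OSMR they were WLS (0.94), DUSP6 (0.93) and FLRT3 (0.92), with RGMB farthest (-0.91). IL6ST and IL6R, which varied least, had weaker neighbours, led by WDR36 (0.87) and ASS1 (0.77), with MRPL55 (-0.88) and SUZ12 (-0.65) farthest.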

How the data were processed

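RNA of IMR90 cells was measured on 38 1-colour Affymetrix arrays, 2 per group in 19 groups. The authors deposited log2 expression values per probe set; the submitters' processing notes name GCRMA, which corrects background by probe sequence and normalizes across the arrays it is given. The sources used here do not say if both experiments went through it jointly, so levels across the 2 are ordered but not tested. Values ran from 0.86 to 13.88, with array medians of 3.27 to 3.41.

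Probe sets were named from the platform annotation: 41091 named 1 gene, 1801 several and 11721 none. The brightest probe set stood for each of 19775 genes, and 8511 genes above log2 5 on at least 2 arrays of the first experiment were tested. limma 3.58.1 (R 4.3.3) fitted 1 mean per group within each experiment, or over all 38 arrays for differences between experiments, with Benjamini-Hochberg adjustment per comparison and calls at 0.05. In simulated data for shRB against vector at confluence, over 8511 genes, 97% of genes changed by 2 on the log2 scale and 100% of those changed by 4 were called. Of 203 calls 6 were false. The simulated spread of a gene was the same in every group, while the real confluent vector arrays differed most (0.79). The shares called therefore need not hold for that comparison.

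Named were all members, the 3 most alike genes and the least alike one by r, and called list genes. The lists were known regulators of IL6 transcripts, STAT3 responders, JAK-STAT3 genes, sheddases, other ligands and receptors, cell type markers and hairpin targets. Members and lists were chosen with earlier results of these data known. Alternatives were quantile normalization, other filters, the mean of a gene's probe sets, every probe set apart, an intensity trend, other sets of arrays, a replicate block and leaving out each array. The senescent-confluent differences and the leave-one-out counts of lists were added after the values were seen.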

Additional observations from a re-analysis of the deposited data

Results flagged for a closer look

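Tests of a difference in hairpin effect against growing cells passed for IL11 alone. Between senescent and confluent cells they passed for IL11, IL6 and LIF, with shRB and shp107. None passed for a member with shp130, or between low-serum and growing cells. Between confluent and growing cells the IL11 effect differed by -4.89 with shRB and -5.73 with shp107, where 2.55% and 3.35% of genes were called. Both calls ended with only the arrays compared in the fit. Between senescent and growing cells the IL11 effect differed by 3.04 with shRB, where 1.99% of genes were called. That call ended in 6 of 8 fits that left out an array. The senescent-confluent comparison was added after the values were seen. There the shRB effect differed by 7.93 for IL11, 5.28 for IL6 and 3.67 for LIF, where 13.9% of genes were called. The shp107 effect differed by 6.69 for IL11, 3.84 for IL6 and 2.73 for LIF, where 11% of genes were called. With only the arrays compared in the fit the IL11 calls held, and the IL6 and LIF calls ended with both hairpins. The shp107 call for IL6 also ended in 7 of 8 fits that left out an array.

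Further probe sets of the members differed in the same senescent-confluent comparison, where 13% of probe sets were called with shRB and 9.95% with shp107. IL11 on 206926_s_at differed by 4.82 with shRB and 2.98 with shp107, and OSMR on 1554008_at by 2.27 with shRB and 1.86 with shp107. With shRB, LIFR on 205876_at differed by -1.37 and IL6ST on 212196_at by -1.78, while the brightest probe sets of LIFR and IL6ST did not pass (-0.30 and -0.20). The shRB effect on OSMR in senescent cells, on 1554008_at, differed by -1.93 between the second and the first experiment, where 1.1% of probe sets were called and the brightest OSMR probe set differed by -0.01 (interval -0.77 to 0.76).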

How the results depend on the processing

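No member change that was called in either fit changed sign under any alternative. Sign changes among uncalled changes were not counted. Some occurred, as for IL6 with shp130 against vector at confluence (-0.48 to 2.78 when 1 array was left out). Of 301 member changes, 298 kept their side of the threshold under quantile normalization and 293 with no filter. In 1 fit over all 38 arrays 294 did, and 276 when only the arrays of the groups compared were fitted. The stricter filter and the mean of probe sets covered 258 changes, of which 258 and 246 kept their side. With only the arrays compared, member calls numbered 2 for state against growing in vector cells (8 with all arrays of the first experiment), 2 for hairpin against vector (6), 1 for the differences between states (3) and 2 for the senescent-confluent differences (6). The fitted changes are the same differences of group means there, with fewer arrays to estimate the spread. The main fit takes 1 spread per gene for all groups of an experiment. For IL6 the SD was 2.26 in growing and 2.30 in confluent vector cells, against a median of 0.31 over the 19 groups. The SE of the main fit can thus be too small where these vector groups enter and too large for groups with close replicates. The 17 calls that ended were LIFR and the 3 ligands in confluent, IL6 in low-serum and IL6 in senescent against growing vector cells, LIFR in senescent against confluent vector cells, IL6 and LIF with shRB and shp107 at confluence and in the senescent-confluent differences, and IL11 in both confluent-growing differences. Another 8 changes became called, among them IL6 and LIFR in confluent against growing shRB cells (adjusted p = 0.0441 and 0.0131), IL11 in the shp130 pair (0.0245) and IL6, LIF and LIFR in senescent against growing shp130 cells (0.0411, 0.0152 and 0.00201). In 1 fit over all 38 arrays the differences between states gave 5 calls. Leaving out each array gave 3 to 9 calls for state against growing in vector cells, 19 to 26 (23) in hairpin cells, 5 to 6 (5) for senescent against quiescent cells, 6 to 9 for hairpin against vector, 2 to 8 for the differences between states, 5 to 6 for the senescent-confluent differences, 9 to 16 (13) in the second experiment and 0 to 1 (0) between experiments. The labels do not say that a replicate letter marks a shared culture or day. Over 120 pairs of groups of the first experiment the correlation of same-lettered deviations ran from -0.38 to 0.49, with a median of 0.04 and 38 over 0.1, and over the 3 pairs of the second from -0.14 to 0.63, so the arrays were taken to share only a letter. With the replicate block, 298 of 301 changes kept their call, LIFR in senescent against growing shRB cells was no longer called (-1.30, adjusted p = 0.0542), and 2 changes became called. With 2 arrays per group and IL6R near the filter, differences in dim members could have gone undetected.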
